A study of Mus musculus with 12 samples.

Results

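The response of 11112 genes to the level of Spi1 was followed over all 12 libraries of 2 experiments in BV2 cells, an immortalised mouse microglial line. These were the genes, among the 24062 entries of each deposited table, with a mean of 1 FPKM or more in the table of the knockdown experiment and in the table of the overexpression experiment. Of the other entries, 105 failed this limit in the knockdown table only, 102 in the overexpression table only and 12739 in both. Just inside it were Hdc and Zfp248, whose lower table means were 1.0002 and 1.0008 FPKM, and just outside Mttp and Agap2 at 0.999 and 0.994 FPKM. FPKM counts the reads of a gene after division by its length in kilobases and by the library total in megareads. The libraries were ordered by the log2(FPKM + 1) of Spi1 itself, and each gene was described by the rank correlation of its level with that of Spi1, over the 12 libraries and over the 6 of each table. The correlations chose the genes called graded below, so they are given as a description without a test.

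The 4 groups held 3 libraries each, and all came from BV2 cells sorted by flow cytometry. Spi1 was lowered by a transient short hairpin RNA, with a scrambled hairpin as its control, or raised from a transient mouse cDNA, with an empty frame as its control. The experiments share no control library. The labels do not say which fluorescent marker was sorted, how long after delivery RNA was taken, or whether each library is a culture of its own, so the p-values speak only of the spread among these libraries, which may be technical. BV2 is a transformed line and no further agent was given, so the groups differ only in the construct as far as the labels go.

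PU.1, the protein of Spi1, is an ETS-family transcription factor, which binds purine-rich sites around a GGAA core. Myeloid cells depend on it for their identity, and it works with partners such as IRF8 and C/EBP factors at the enhancers and promoters of genes for Fc receptors, integrins, cytokine receptors and the phagocyte oxidase. Its amount matters as well as its presence: in blood cell development, different amounts of PU.1 go with different fates.

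Spi1 stood at 50.9, 42.4 and 52.3 FPKM in knockdown libraries 1, 2 and 3, and at 159, 169 and 168 FPKM in scrambled controls 1, 2 and 3. With the empty frame it measured 158, 117 and 131 FPKM, and under overexpression 287, 224 and 206 FPKM. The order of the group means was knockdown at 48.5 ± 5.32, empty control at 135 ± 20.8, scrambled control at 165 ± 5.41 and overexpression at 239 ± 42.3 FPKM (SD, n = 3 each). Within each table the treated libraries did not overlap their controls, and the exact two-sided permutation test gave p = 0.1 for either table, the smallest value that 3 against 3 allows. The empty and scrambled controls lay next to each other, the highest empty control at 158 and the lowest scrambled control at 159 FPKM. The step from knockdown to scrambled control was 1.75 on the log2 scale and that from empty control to overexpression 0.81, while in FPKM the steps were 117 and 103. A slope below is the change of a gene's log2(FPKM + 1) divided by the log2 step of Spi1 in the same table. Spi1 reads from the introduced cDNA and from the cell's own gene cannot be told apart in these values, nor do they measure the protein.

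Read totals recovered from the steps in the FPKM values ran from 22.3 to 33.1 megareads, and 14868 to 15488 genes were above 0 in a library. Of 11 markers of microglia and macrophages, 9 had a mean of 1 FPKM or more. The exceptions were Cx3cr1 and P2ry12, at most 0.903 and 0.415 FPKM in any library. The summed level of the list was 1879 to 2097 FPKM in knockdown and 2062 to 2346 in the empty controls. It was 2283 to 2424 in the scrambled controls and 2034 to 2319 in overexpression, with Cd68, Fcer1g and Tyrobp the highest members. Markers of B cells, mast cells, neurons, astrocytes and fibroblasts summed to at most 1.68 FPKM in any library. Of the 5 endothelial markers only Kdr and Flt1 were above 1 FPKM, their list summing to 115 to 120 FPKM in knockdown and 76.2 to 103 FPKM elsewhere, while Pecam1, Cdh5 and Cldn5 were at most 0.229 FPKM. Of the oligodendrocyte markers only Cnp was above 1 FPKM. Of the T cell and the neutrophil markers only Lck and S100a8 were above 1 FPKM. Both of these lists summed to less in knockdown, at most 3.10 and 2.96 FPKM, than in any other library. The part of these markers in the results was not tested.

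Genes graded with Spi1 were few. The rank correlation over the 12 libraries had a median of -0.11 over the genes, with 51 genes at 0.8 or more and 96 at -0.8 or less. Of 2231 genes at 0.6 or more within the knockdown table, 349 (15.6%) were so in the overexpression table too, where 9.60% of all genes were. Of 3959 genes at -0.6 or less in the first, 741 (18.7%) were so in the second, against 16.0% of all. A gene was called graded where this correlation was at least 0.8 in size and the correlation within each table had the same sign and a size of at least 0.6. Leaving out Spi1, 140 genes were chosen by these correlations (1.26% of the genes), 48 that were higher with more Spi1 (0.432%) and 92 that were lower (0.828%). The genes nearest to the limit were Cdkn2a and Phtf1 inside at -0.80 and, outside, Ndufaf3 and Olfr111 with sizes of 0.797. Of the 92 entries, 21 were genes of the gamma-protocadherin cluster, whose entries share reads of their constant exons and are 1 signal, leaving 71. The median slope of the 48 was 0.187 below the control level and 0.187 above it, and that of the 92 was -0.201 and -0.199. The rule kept out genes without a correlation of the same sign in both tables. The closeness of these medians is thus in part fixed by the choice. After the 2 libraries farthest from the median Spi1 level were left out, knockdown 1 and knockdown 2, 37 genes were graded by the same rule. Without any 1 library the count ran from 82 (knockdown 1) to 358 (overexpression 2), and with each table centred on its controls it was 485. When the libraries were rescaled by their median ratio to a common reference, 117 genes were graded, 66 with Spi1 and 51 against it, and 68 of them were among the 140, so the balance of the signs depends on the scaling.

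Among the genes graded with Spi1 at a mean of 5 FPKM or more, Il1rn had the largest change in the table where it changed less, and Il1f9 the next. Il1rn, which encodes the interleukin-1 receptor antagonist, measured 87.1, 90.1 and 86.7 FPKM after knockdown, then, with rising Spi1, 207, 190.1 and 183 for the empty frame, 316, 254 and 205 for the scrambled hairpin and 359, 600.1 and 375 for overexpression. Both pairs of groups were apart, and the overexpression libraries were above all 9 others. The change was -1.52 ± 0.14 (log2, SE) in knockdown, with adjusted p = 0.00168 by limma with Benjamini-Hochberg adjustment. In overexpression it was 1.16 ± 0.20, which did not pass the threshold. The same libraries chose Il1rn as graded and by the size of its change. The p-value and the separation of the groups are therefore no separate support for its grading. Il1f9, another cytokine gene of the family, measured 2.40, 3.39 and 2.90 FPKM (knockdown), 11.7, 13.3 and 10.6 FPKM (empty), 11.3, 15.2 and 11.2 FPKM (scrambled) and 13.9, 24.9 and 15.01 FPKM (overexpression). Its slope was 1.02 below the control level and 0.64 above it, and its control groups lay side by side.

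The other 8 named genes of this direction are of mixed function. Pik3ap1, which encodes the adaptor BCAP between immune receptors and phosphoinositide 3-kinase, measured 223, 213 and 211 FPKM under knockdown, 340.4, 273 and 295 with the empty frame, 380.1, 383 and 345 with the scrambled hairpin and 432, 339.6 and 365 under overexpression. Its libraries overlapped between the empty controls and overexpression, but its difference within the numbered pairs was 0.34, 0.31 and 0.31, and its slopes of 0.44 and 0.40 were nearly equal. Lgals3, which encodes the galactose-binding lectin galectin-3, measured 591, 608 and 532 FPKM after knockdown, then, with rising Spi1, 665, 606 and 561 for the empty frame, 756, 766 and 684 for the scrambled hairpin and 868, 795 and 644 for overexpression. Its slope was 0.20 below the control level and 0.40 above, and the empty controls overlapped the knockdown libraries. Cd72, an inhibitory receptor, measured 15.998, 20.8 and 22.9 FPKM (knockdown), 34.3, 25.4 and 28.6 FPKM (empty), 30.5, 40.02 and 37.96 FPKM (scrambled) and 44.7, 28.5 and 36.6 FPKM (overexpression). Cd84, an adhesion receptor of the SLAM family, had slopes of 0.32 and 0.38. Kctd12, Armc7, Ppdpf and the AP-1 family repressor gene Jdp2 completed the 10, with slopes of 0.14 to 0.31 below the control level and 0.27 to 0.56 above it. Of these 10 genes, 8 stayed graded under the median-ratio scaling, the exceptions being Lgals3 and Il1f9, and the correlations of all 10 kept their sign.

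**Figure D1:**
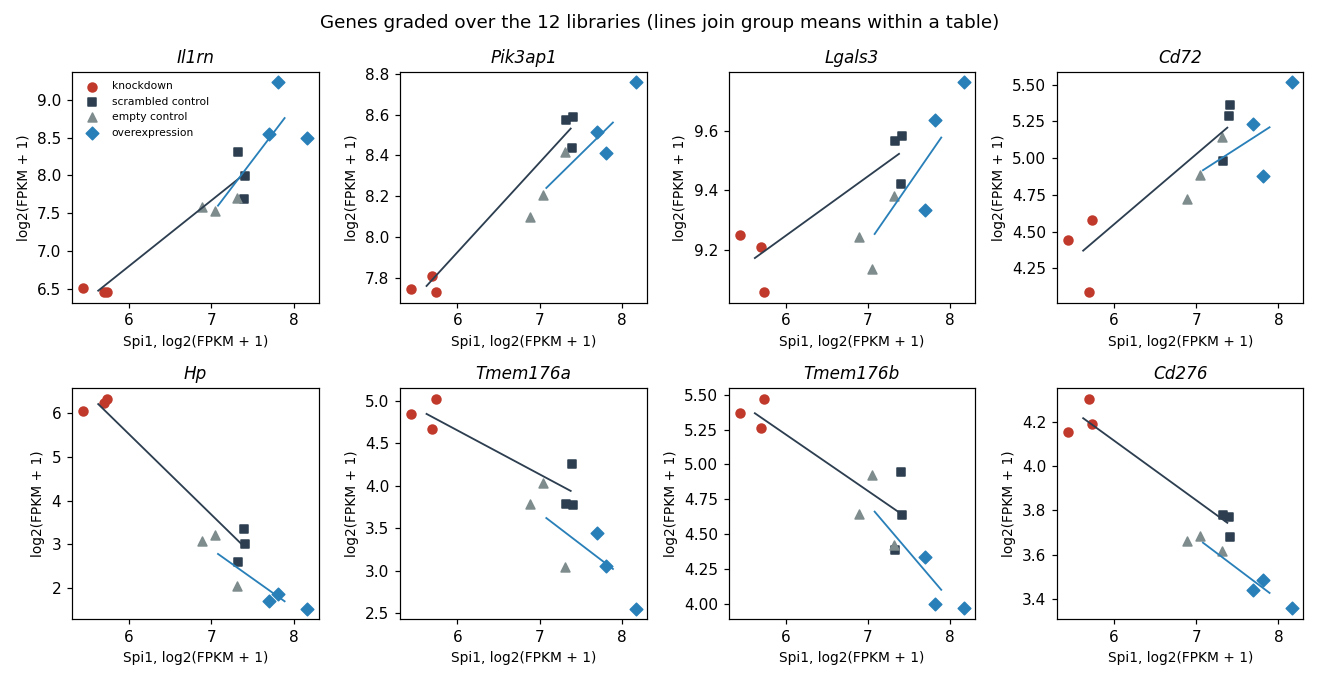
Levels of 8 graded genes, log2(FPKM + 1), against the level of Spi1, log2(FPKM + 1), in each of the 12 libraries, with 1 point per library and lines that join the group means within a table. Il1rn, Pik3ap1, Lgals3 and Cd72 go up with Spi1 and Hp, Tmem176a, Tmem176b and Cd276 go down. The knockdown libraries carry most of the range of Hp.

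Hp was the strongest of the genes graded against Spi1. It encodes haptoglobin, the plasma protein that binds free haemoglobin and belongs to the acute phase. Hp measured 74.4, 65.96 and 79.95 FPKM under knockdown, 3.10, 7.43 and 8.26 with the empty frame, 4.99, 7.02 and 9.23 with the scrambled hairpin and 1.87, 2.61 and 2.22 under overexpression. The knockdown libraries were above all 9 others and the overexpression libraries below all 9 others. It rose by 3.23 ± 0.18 (log2, SE) in knockdown, with adjusted p = 0.000627 by limma with Benjamini-Hochberg adjustment. In overexpression it differed by -1.09 ± 0.31, which did not pass. The same libraries chose Hp, so these values are no separate support for its grading. The slopes of Hp were -1.84 and -1.34. The 95% interval of their difference with the replicate number as a block, -0.12 to 1.13, includes 0.

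The neighbouring genes Tmem176a and Tmem176b, which encode related membrane proteins of antigen-presenting cells, shared the direction. Tmem176b measured 37.4, 40.2 and 43.4 FPKM after knockdown, then, with rising Spi1, 20.4, 23.96 and 29.4 for the empty frame, 19.9, 23.9 and 29.9 for the scrambled hairpin and 14.7, 14.99 and 19.2 for overexpression. The 2 control groups of Tmem176b covered nearly the same range, with knockdown above and overexpression below both. Tmem176a measured 24.4, 27.6 and 31.5 FPKM (knockdown), 7.24, 12.8 and 15.3 FPKM (empty), 12.8, 12.7 and 18.1 FPKM (scrambled) and 4.89, 7.33 and 9.93 FPKM (overexpression). Its slopes were -0.52 and -0.74 and those of Tmem176b -0.40 and -0.69. Cd276, the gene of the checkpoint ligand B7-H3, measured 18.7, 16.8 and 17.2 FPKM under knockdown, 11.3, 11.7 and 11.8 with the empty frame, 12.7, 11.8 and 12.6 with the scrambled hairpin and 9.25, 10.2 and 9.85 under overexpression. Its groups did not overlap within either table and its slopes of -0.27 and -0.28 were nearly equal. The agrin gene Agrn, the cullin gene Cul7, Grcc10, Tmem9, Phtf1 and the seipin gene Bscl2 had slopes from -0.14 to -0.23 below the control level and from -0.28 to -0.35 above it. Of the 10 named genes, 5 stayed graded under the median-ratio scaling (Hp, Tmem176b, Agrn, Cul7 and Phtf1), and the correlations of all 10 kept their sign.

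Promoters of a few genes with different responses are shown as examples. Cd72 and Pik3ap1 were graded on both sides of the control level. Itgam was steep only below it, and Mmp12 had its larger slope above it. The sequences are from RefSeq on build GRCm38.p6, each from 250 bases before to 50 bases after a listed start, written 5′ to 3′ along the gene. Capitals mark GAGGAA, a purine-rich form of the PU.1 core, or TTCCTC, its reverse complement. They lie at chr4:43454577-43454876 on the minus strand for Cd72, chr19:41385053-41385352 on the minus strand for Pik3ap1, chr7:128062390-128062689 on the plus strand for Itgam and chr9:7344147-7344446 on the plus strand for Mmp12, for which a later start is also listed.
Cd72: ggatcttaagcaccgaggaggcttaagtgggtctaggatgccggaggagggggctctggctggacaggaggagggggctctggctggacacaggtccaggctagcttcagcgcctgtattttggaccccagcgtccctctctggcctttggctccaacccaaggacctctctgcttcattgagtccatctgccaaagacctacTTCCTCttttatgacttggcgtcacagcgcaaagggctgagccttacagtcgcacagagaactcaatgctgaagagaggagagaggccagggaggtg
Pik3ap1: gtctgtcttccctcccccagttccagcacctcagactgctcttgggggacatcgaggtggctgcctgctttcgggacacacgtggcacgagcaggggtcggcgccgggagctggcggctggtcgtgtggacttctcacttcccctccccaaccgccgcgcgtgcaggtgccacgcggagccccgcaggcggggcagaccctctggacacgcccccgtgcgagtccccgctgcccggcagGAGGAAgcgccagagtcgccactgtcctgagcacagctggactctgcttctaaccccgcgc
Itgam: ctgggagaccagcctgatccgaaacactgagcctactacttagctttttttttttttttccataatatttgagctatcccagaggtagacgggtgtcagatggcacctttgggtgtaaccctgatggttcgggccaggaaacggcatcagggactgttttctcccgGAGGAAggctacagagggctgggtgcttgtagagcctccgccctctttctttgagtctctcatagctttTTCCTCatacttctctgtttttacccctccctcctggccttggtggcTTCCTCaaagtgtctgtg
Mmp12: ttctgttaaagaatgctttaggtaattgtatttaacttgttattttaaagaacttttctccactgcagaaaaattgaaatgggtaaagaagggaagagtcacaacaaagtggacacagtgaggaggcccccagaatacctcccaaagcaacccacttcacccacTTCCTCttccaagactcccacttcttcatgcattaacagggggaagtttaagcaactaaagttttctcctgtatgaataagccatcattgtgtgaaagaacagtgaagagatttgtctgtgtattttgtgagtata
The Itgam window held 3 matches and the others 1 each, and those of Cd72 and Mmp12 were part of GAGGAAGT. All windows shown hold a match, while no listed start of Il1rn, Lgals3, Kctd12, Ppdpf or Ncf1 did. The examples therefore do not link a match to a form of response. Promoters were matched for 8128 of the 11112 genes, and a gene was counted where any listed start held the letters on either strand. GAGGAA was found in 30.5% of them, in 20 of 36 (55.6%) of those graded with Spi1 and in 18 of 55 (32.7%) of those graded against it. GAGGAAGT, which contains GAGGAA, was found in 3.99% of all, in 2 of the 36 and in 0 of the 55. A match is a description of letters in this window, not a bound site.

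Of the 11112 genes, 26.4% passed the test of knockdown against scrambled control, limma with Benjamini-Hochberg adjustment at 0.05. Of these 2932 genes, 1937 were higher (17.4%) and 995 lower (8.95%), Spi1 among the latter. Under the median-ratio scaling 1255 were higher and 1437 lower, so the split turns with the scaling, which moved the median of all genes by about 0.07 on the log2 scale. In the overexpression table limma called 0 genes (0.0%), with 119 at an unadjusted p below 0.05. In either experiment, fewer cells with a transcript and less of it per cell cannot be told apart in bulk RNA. With the replicate number as a block, which takes out a difference between the numbered pairs, limma called 5079 genes (45.7%) in knockdown and 12 (0.108%) in overexpression. The numbered libraries deviated from their group means together in both tables, most in overexpression.

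Genes called in knockdown were then read in the overexpression table, which shares no library with it. Among the 994 genes other than Spi1 that fell in knockdown, the overexpression difference was above 0 for 588 (59.2%), against 42.1% of all 11111 genes other than Spi1. Among the 1937 genes that rose it was below 0 for 1317 (68.0%), against 57.9% of all. The sizes were small: the median difference in overexpression was 0.02 for genes that fell and -0.03 for genes that rose, and -0.01 for all genes. Among the 211 genes that fell at least 1.5-fold the median was 0.07, with 70.1% above 0, and among the 300 that rose at least 1.5-fold it was -0.06, with 72.0% below 0. Within the 3 numbered pairs the medians were 0.02, 0.01 and 0.04 for genes that fell and -0.03, -0.06 and -0.02 for genes that rose. Leaving out single libraries, which unbalances the pairs, moved these medians across 0: to -0.002 for genes that fell without overexpression 1, and to 0.02 and 0.01 for genes that rose without overexpression 2 and empty control 3.

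Read the other way, the blocked overexpression test at an unadjusted p below 0.05 gave 601 higher and 984 lower genes. Of the 601, 28.1% fell in knockdown and 7.15% rose, where the shares of all genes were 8.95% and 17.4%. Of the 984, 26.8% rose and 4.88% fell. Each direction of the overexpression difference thus held more of the opposite knockdown call than all genes did.

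Over the 4 Spi1 levels, the genes called in knockdown did not follow 1 line. Relative to knockdown, the genes that fell were higher by a median of 0.26 in the empty controls, 0.39 in the scrambled controls and 0.29 in overexpression. The genes that rose were at -0.14, -0.37 and -0.17. In both sets the scrambled controls lay farther from knockdown than the overexpression libraries did, although Spi1 was higher in overexpression. The scrambled controls also chose these genes, so their distance is in part fixed by the choice. The group means rose or fell in the order of Spi1 through all 4 groups for 8.75% of the genes that fell and 6.71% of those that rose, against 7.80% of all genes. For genes that fell or rose at least 1.5-fold the shares were 14.2% and 4.33%. The levels are set across 2 tables here, and a difference between the experiments or their constructs cannot be told apart from a response to Spi1.

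**Figure D2:**
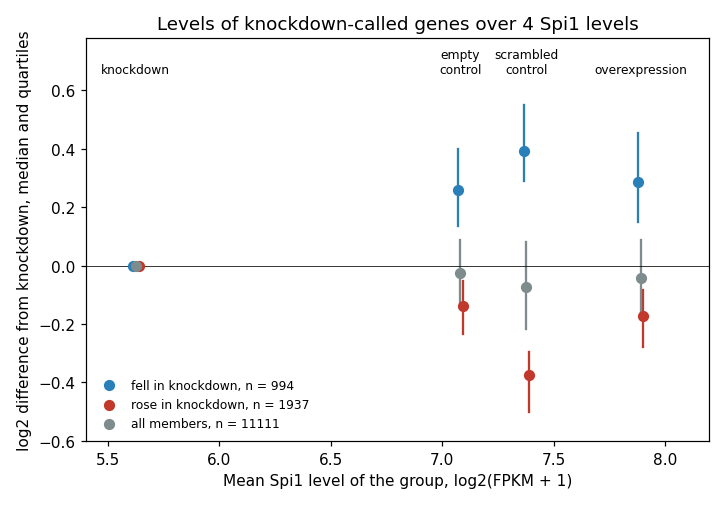
Median difference from knockdown, log2(FPKM + 1), with quartiles as vertical lines, against the mean Spi1 level of the 4 groups, for genes that fell or rose in knockdown and for all genes other than Spi1. The scrambled controls lie farthest from knockdown in both sets of called genes, at 0.39 and -0.37, and overexpression lies closer to the empty controls.

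The knockdown libraries did not overlap the scrambled controls for 45.5% of the genes, 30.3% higher and 15.2% lower, and overexpression did not overlap the empty controls for 4.06%, 1.64% higher and 2.42% lower. Groups were also compared with all 9 other libraries, which sets levels across the 2 experiments. Of the 994 genes that fell in knockdown, all 3 knockdown libraries were on 1 side of the other 9 in 499 (50.2%) and all 3 scrambled controls in 204 (20.5%). Of the 1937 that rose, the knockdown libraries stood apart for 496 (25.6%) and the scrambled controls for 704 (36.3%). Over all 11111 genes the shares were 12.4% for knockdown, 11.03% for the scrambled controls and 1.11% for overexpression. For Hp and Il1rn both the knockdown and the overexpression libraries stood apart, and for Uchl3 and most mitotic genes, described further on, the scrambled controls did.

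Whether the slope differs below and above the control level was tested as a contrast of the 4 group means over all 12 libraries. Without the block it called 1 gene, Uchl3 (0.009% of the genes), with 522 at an unadjusted p below 0.05. With the block it called 439 genes (3.95%), 203 with the more positive slope above the control level (1.83%) and 236 with the more negative (2.12%). Of 1651 genes that fell in knockdown with the block, 219 were among these, and 216 of the 219 were flatter or opposite above the control level. Of 3427 that rose, 188 were among them, and all 188 were flatter or opposite. Since the contrast contains the knockdown effect, this direction is largely fixed by taking genes that moved in knockdown. The medians of the genes that were flatter went from 0.30 to -0.07 for those that fell and from -0.30 to 0.06 for those that rose, so the medians above the controls were small and of the opposite sign. The estimate above the control level had the opposite sign for 166 of the 216 and for 151 of the 188. The contrast contains this estimate too, so choosing genes by the contrast favours an opposite sign. Among all genes called in knockdown without the block, it was opposite for 40.8% of the 994 that fell and 32.0% of the 1937 that rose. The 439 calls rest on every overexpression pair: 1 was left without pair 1 or 3 and 0 without pair 2, although 439 of the 439 kept their sign and an unadjusted p below 0.05 in each of these 3 fits. Without knockdown pairs 1, 2 and 3 the contrast called 450, 69 and 256 genes, of which 315, 62 and 193 were among the 439. The contrast was also measured per FPKM of Spi1 rather than per log2 unit, so that the 2 steps are nearly equal. It then called 87 genes without the block, all of them flatter or opposite above the control level. Gene levels stayed on the log2 scale here. A gene proportional to Spi1 would therefore be flatter above by this measure, so this direction is in part built in.

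**Figure D3:**
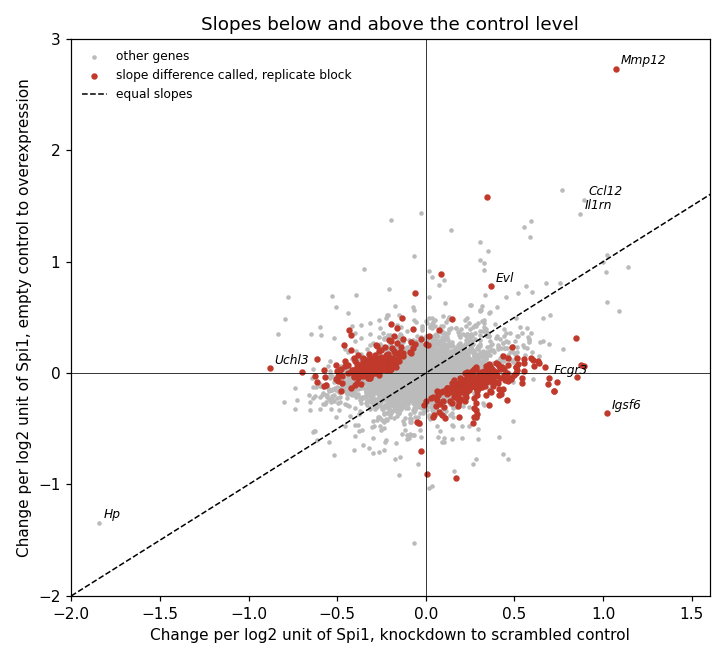
Slope of each gene per log2 unit of Spi1 from empty control to overexpression against that from knockdown to scrambled control, 1 point per gene, with the 439 genes of the blocked slope difference in red and the dashed line at equal slopes. Most red points lie near 0 on the vertical axis, while Hp, Il1rn and Ccl12 lie in the quadrants of equal sign.

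Uchl3, a ubiquitin C-terminal hydrolase gene, had the only difference called without the block. It measured 35.2, 41.1 and 39.1 FPKM after knockdown, then, with rising Spi1, 36.8, 38.3 and 39.4 for the empty frame, 11.9, 13.7 and 12.2 for the scrambled hairpin and 39.1, 40.4 and 37.8 for overexpression. The 3 scrambled controls were therefore below all 9 others, which overlapped, and the level did not follow Spi1. The slope difference was 0.92 (95% interval 0.69 to 1.15), with adjusted p = 0.0328 by limma with Benjamini-Hochberg adjustment, 0.125 under the median-ratio scaling and 0.00721 with the block. What sets the scrambled controls apart was not tested.

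Flattening was seen in genes known as PU.1 targets. Fcgr3, an activating receptor for immunoglobulin G, measured 129, 78.3 and 85.3 FPKM (knockdown), 179, 198 and 188 FPKM (empty), 277, 195 and 205 FPKM (scrambled) and 182, 188 and 180.3 FPKM (overexpression). Its slope was 0.70 below the control level and -0.05 above, and the difference of -0.74 had a 95% interval of -0.90 to -0.59 with the block, adjusted p = 0.0179 by limma. Empty controls and overexpression of Fcgr3 overlapped and lay next to the lowest scrambled control. Itgam, the alpha chain of complement receptor 3, measured 99.5, 73.2 and 86.7 FPKM under knockdown, 118, 137 and 128 with the empty frame, 211, 174 and 182 with the scrambled hairpin and 133, 132 and 138 under overexpression, with slopes of 0.64 and 0.09. All 3 overexpression libraries of Itgam lay below all 3 scrambled controls. Ncf1, the p47-phox subunit of the phagocyte oxidase, measured 52.3, 51.7 and 53.6 FPKM after knockdown, then, with rising Spi1, 97.4, 67.7 and 80.2 for the empty frame, 93.9, 115 and 103 for the scrambled hairpin and 100.2, 66.3 and 82.6 for overexpression. Its values differed more between the numbers 1 to 3 than between empty control and overexpression, and its slopes were 0.55 and 0.02. Pirb, an inhibitory receptor of myeloid cells, had slopes of 0.89 and 0.06. Pira4 and Pira7, close relatives of Pirb, had slopes of 0.73 and 0.72 below the control level and both of -0.16 above it, and the 3 genes may share reads.

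Other genes went the opposite way above the control level. Igsf6, a myeloid immunoglobulin-like receptor gene, measured 5.61, 4.99 and 5.90 FPKM (knockdown), 24.8, 18.5 and 14.7 FPKM (empty), 16.3, 26.7 and 22.9 FPKM (scrambled) and 21.1, 13.998 and 11.96 FPKM (overexpression). It was lower than its numbered empty control in 3 of 3 pairs, by 0.22, 0.38 and 0.28 on the log2 scale, without passing in the overexpression test, and its slope went from 1.02 to -0.36. Emr1, the gene of the macrophage antigen F4/80, measured 92.7, 99.2 and 114 FPKM under knockdown, 75.96, 77.4 and 66.8 with the empty frame, 63.9, 59.8 and 57.2 with the scrambled hairpin and 100.5, 84.2 and 83.6 under overexpression. Its scrambled controls were the lowest group, knockdown and overexpression overlapped, and the slope went from -0.42 to 0.35. Mmp9, a gelatinase gene, had slopes of 0.17 and -0.94, and its knockdown and scrambled libraries overlapped. Wfdc17 and Serpinb1a had slopes of 0.85 and -0.04, and of -0.62 and 0.13. Snord52 and Mir421, also taken by the rule for named genes, lie within longer transcripts and are uncertain.

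Of the genes that fell in knockdown and had a called slope difference, both with the block, 3 were steeper above the control level: Mmp12, Evl and Mfge8. Adding the median-ratio scaling made these 5. Il1rn, Lgals3 and Kctd12 had larger slopes above than below as well, but their differences were not called. Mmp12, the macrophage metalloelastase, measured 8.37, 1.65 and 1.01 FPKM after knockdown, then, with rising Spi1, 7.29, 2.99 and 3.90 for the empty frame, 45.3, 8.21 and 4.85 for the scrambled hairpin and 37.03, 12.8 and 29.6 for overexpression. Library 1 was high in both groups of the knockdown table, where the groups overlapped, while overexpression was above all empty controls. Its slope was 1.07 below and 2.73 above, with a difference of 1.66 (95% interval 1.08 to 2.23) and adjusted p = 0.028 by limma with the block, and 0.134 for its knockdown change without the block. Evl, an actin regulator, was also graded and measured 3.66, 2.25 and 2.94 FPKM (knockdown), 4.37, 5.07 and 3.48 FPKM (empty), 6.06, 4.54 and 4.83 FPKM (scrambled) and 7.03, 8.86 and 5.87 FPKM (overexpression). Mfge8, a bridging protein for the uptake of dying cells, had slopes of 0.15 and 0.49.

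**Figure D4:**
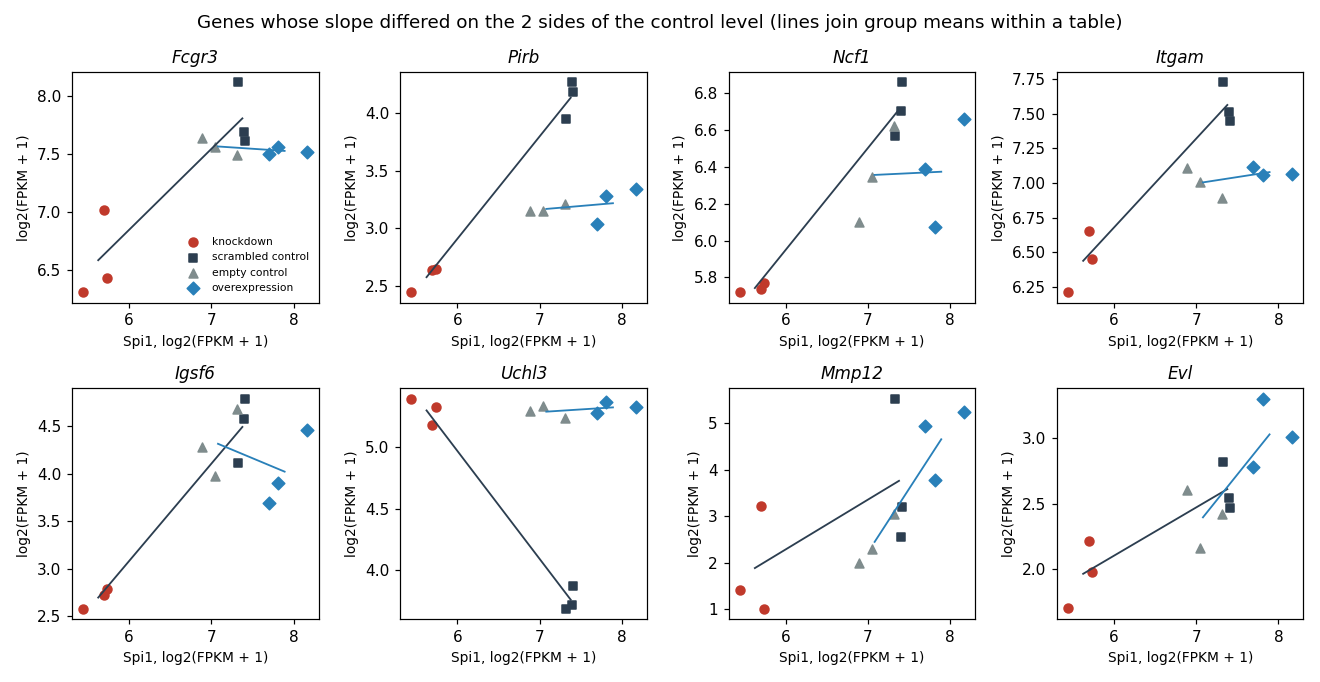
Levels of 8 genes with a called slope difference, log2(FPKM + 1), against the level of Spi1, log2(FPKM + 1), in each of the 12 libraries, with lines that join the group means within a table. Fcgr3, Pirb, Ncf1 and Itgam are flat above the control level, Igsf6 turns down, Uchl3 is low in the scrambled controls alone, and Mmp12 and Evl are steeper above.

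Of the 12 genes called in overexpression with the block, 8 were higher (0.072% of the genes), among them Spi1, and 4 lower (0.036%). Ccl12, a monocyte-attracting chemokine, measured 16.01, 11.7 and 11.7 FPKM under knockdown, 21.5, 6.55 and 17.04 with the empty frame, 44.8, 44.04 and 33.3 with the scrambled hairpin and 46.5, 20.97 and 39.5 under overexpression. It was higher by 1.26 ± 0.09 (log2, blocked SE) in overexpression with adjusted p = 0.0298 by limma with the block, and in 3 of 3 pairs, and it fell by 1.56 in knockdown. Its libraries numbered 2 were the lowest of each group in the overexpression table. Ccl5, a chemokine for T cells and monocytes, measured 3067, 2147 and 2310 FPKM after knockdown, then, with rising Spi1, 990.5, 2455 and 2560 for the empty frame, 3001, 2073 and 2233 for the scrambled hairpin and 664, 1683 and 1714 for overexpression. It was lower under overexpression in 3 of 3 pairs, by 0.58, 0.55 and 0.58 on the log2 scale, with adjusted p = 0.0285 by limma with the block. Its knockdown libraries and scrambled controls overlapped. Adora2b, Gm5483, Mmp12, Mmp13 and Evl were the other higher genes beside Mir7240, and Mir6946, Mir7026 and Mir3101 the other lower entries. The microRNA entries are uncertain because reads of longer overlapping transcripts may be counted in them.

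Gene lists were described by how many members passed in each table and by the median slope. Of 43 tested textbook PU.1 targets, 28 fell in knockdown and 1 rose, Emr1, where 8.95% of all genes fell. Their median slope was 0.29 below the control level and 0.005 above it, against -0.04 and -0.02 for all genes. Across the 2 experiments, the knockdown libraries were below all 9 others for 20 of the 43. The scrambled controls were above all others for 11 and below for 1. Over all 11111 genes, on either side, the shares were 12.4% and 11.03%. High scrambled controls enter the slope below the control level, and what sets them apart was not tested. The blocked slope difference was called for 14 of the 43, 13 with the lower slope above, where 2.12% of all genes had a lower one. Without the block it was called for 0 of the 43, and the loss of nearly all blocked calls without any 1 overexpression pair holds for these too. Of the 43, 3 were graded with Spi1: Il1rn, Csf2ra and Cd72. The list was compiled from the literature on PU.1, with earlier results of these data known. Of 24 NADPH oxidase and myeloid signalling genes, 13 fell, with median slopes of 0.22 and 0.01, and 7 had the lower slope above with the block. In that list the knockdown libraries were below all 9 others for 11 genes and the scrambled controls above all others for 6. Of 32 pattern recognition receptors and adaptors, 16 fell and 1 rose, with median slopes of 0.12 and -0.07, and 7 had the lower slope above. Among these 32 the same 2 positions were taken for 5 and 2 genes.

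Complement and Fc receptor genes and lysosomal genes were alike in direction. Of the 15 complement and Fc receptor genes 6 fell, and the median slopes were 0.13 and 0.07. The median of their slope differences was -0.28, against 0.02 for all genes. With the block, 4 of the 15 were called with the lower slope above, where 2.12% of all genes were, and 0 with the higher. Of the 38 lysosomal and phagocytic genes 14 fell and 2 rose, and the median slopes were 0.11 and 0.01. With the block 23 fell and 2 rose, where 14.9% of all genes fell and 30.8% rose. The blocked slope was called lower above for 6 of the 38 and higher for 1. The 32 chemokine, cytokine and NF-kB genes had median slopes of 0.12 below and 0.08 above, with 14 that fell and 2 that rose. In that list the C-C chemokine gene Ccl7 had slopes of 1.02 and 1.06, beside Il1rn, Il1f9 and Ccl12. Ccl7 measured 146, 116 and 153 FPKM (knockdown), 285, 40.5 and 225 FPKM (empty), 589, 472 and 391.7 FPKM (scrambled) and 428, 99.8 and 367 FPKM (overexpression). Library 2 was low in both groups of the overexpression table, so these overlapped and the difference between them, 0.86 ± 0.87 (log2, SE), did not pass, while it was above 0 in 3 of 3 pairs. Among the pattern recognition receptors, Clec4n, the gene of dectin-2, had a slope of 0.95 above the control level, resting on a difference of 0.77 ± 0.67 (log2, SE) that did not pass. Clec7a, the gene of dectin-1, had slopes of 0.85 and 0.31.

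Cell-cycle genes showed the reverse direction and a particular position of the scrambled controls. Of 34 G2/M genes, 33 rose in knockdown, where 17.4% of all genes did, and the median slope was -0.53 below the control level and -0.16 above. The overexpression difference was below 0 in 34 of 34 but passed in 0 by limma, with and without the block, and the unadjusted p was below 0.05 in 0 without and 18 with it. Top2a, the topoisomerase of dividing cells, measured 79.3, 73.4 and 78.4 FPKM under knockdown, 65.3, 63.4 and 76.8 with the empty frame, 34.8, 37.1 and 45.8 with the scrambled hairpin and 62.1, 54.7 and 74.3 under overexpression. Ube2c, Prc1 and Kif20b lay likewise, with slopes of -0.64, -0.58 and -0.47 below the control level and -0.23, -0.28 and -0.15 above it. For 27 of the 34 genes the scrambled controls were below all 9 other libraries, and for 1 the knockdown libraries were above all others. Over all 11111 genes, on either side, the shares were 11.03% and 12.4%. Of 33 G1/S and replication genes 20 rose, the scrambled controls were below all others for 6, and the median slope was -0.25 below and 0.05 above. The list members of either phase are known to rise and fall together with the share of cells in that phase, which was not measured.

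**Figure D5:**
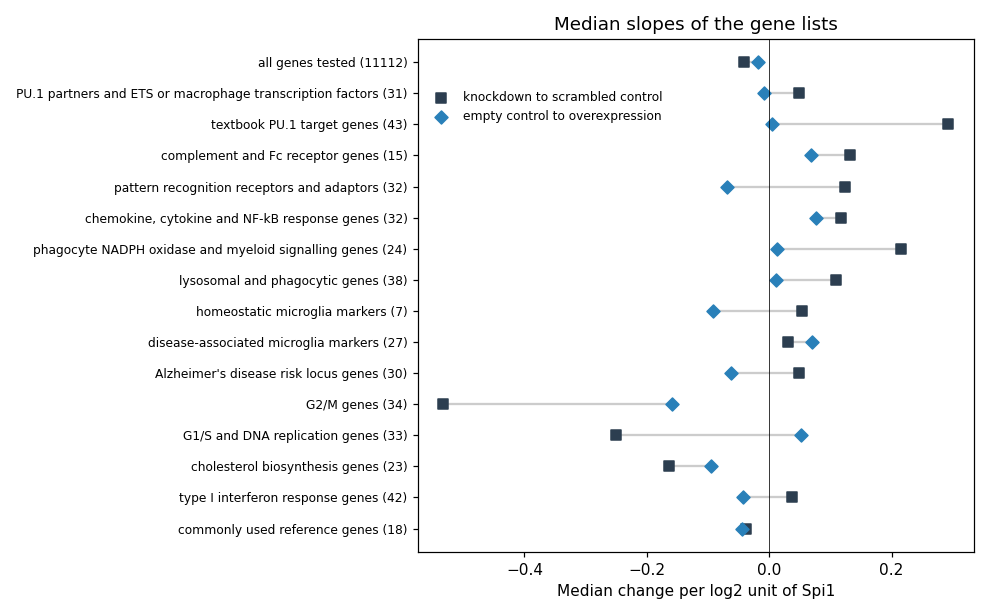
Median slope per log2 unit of Spi1 of each gene list, from knockdown to scrambled control (squares) and from empty control to overexpression (diamonds), with the number of tested genes in brackets. The PU.1 targets have medians of 0.29 and 0.005, the G2/M genes of -0.53 and -0.16, and all genes of -0.04 and -0.02.

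The cholesterol genes stood apart in another way. Of 23 tested, 12 rose in knockdown (52.2%, against 17.4% of all genes) and 0 fell. Under the median-ratio scaling 10 rose and 1 fell, where 1255 of all 11108 genes rose. The knockdown libraries were above all 9 others for 10 and the scrambled controls below all others for 1. Over all 11111 genes, on either side, the shares were 12.4% and 11.03%. Insig1, a sensor that restrains sterol synthesis, measured 53.3, 48.5 and 52.2 FPKM after knockdown, then, with rising Spi1, 31.2, 26.2 and 30.2 for the empty frame, 25.5, 26.9 and 30.8 for the scrambled hairpin and 27.6, 22.2 and 25.1 for overexpression. The other 3 groups of Insig1 lay within 22.2 to 31.2 FPKM. The median slope of the list was -0.16 below the control level and -0.09 above.

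Of 31 PU.1 partners and macrophage transcription factors, 3 fell (9.68%) and 5 rose (16.1%), near the 8.95% and 17.4% of all genes. This balance turned with the processing. In the list, 8 fell and 3 rose under the median-ratio scaling, 9 and 5 with the block, and 15 and 4 with both. Over all genes 1437 fell and 1255 rose under that scaling, 1652 and 3427 with the block, and 2421 and 2270 with both. The balance of all genes thus turned with the scaling as well. The list had median slopes of 0.05 and -0.01, and 0 were graded. Mef2c, a transcription factor of microglia, measured 16.8, 16.6 and 19.8 FPKM (knockdown), 15.3, 17.3 and 16.2 FPKM (empty), 9.85, 9.50 and 11.2 FPKM (scrambled) and 13.5, 16.3 and 15.4 FPKM (overexpression), so only its scrambled controls were low. Of 7 homeostatic microglia markers tested, 2 fell and 1 rose (28.6% and 14.3%, against 8.95% and 17.4% of all genes). Csf1r, the receptor for colony-stimulating factor 1, was among those that fell, with slopes of 0.41 and -0.19. Of 27 disease-associated microglia markers 7 fell (25.9%) and 4 rose, or 11 and 5 with the block. Of 30 genes at Alzheimer's disease risk loci 8 fell (26.7%) and 3 rose, with median slopes of 0.05 and -0.06. With the block 10 fell (33.3%) and 7 rose (23.3%), against 14.9% and 30.8% of all genes. Hdac9 of that list was graded against Spi1 in rank, yet its slope was -0.56 below and -0.10 above. Ms4a6d, a membrane protein gene of the same list, had slopes of 0.88 and 0.07. Of 42 type I interferon response genes 3 fell (7.14%) and 2 rose, or 7 and 2 under the median-ratio scaling and 11 and 5 with the block. Of 18 common reference genes 2 fell and 1 rose.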

How the data were processed

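PolyA RNA of 12 libraries of BV2 cells, read as single 100-base reads with a kit that does not mark strand, was deposited by the authors as 2 tables of FPKM. Tools listed, without roles, in the submitters' processing notes are STAR 2.5.2a, featureCounts, DESeq2 1.14, CASAVA 1.8.2 and bcl2fastq, with build mm10. Annotation, gene lengths, strand option and unit (not given in the sources used here) were not assumed. The exception is FPKM, which was inferred from the deposited values. Their steps gave whole reads for 16751 of 17838 genes above 0 (tolerance 0.01 of a read, wider at very high counts) and read totals. Columns were matched to samples by title and treatment. Of the 24062 entries, 4 with repeated symbols were left out.

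Genes whose mean was 1 FPKM or more in both tables were fitted on log2(FPKM + 1), each table by itself, with limma 3.58.1 (R 4.3.3) and Benjamini-Hochberg adjustment at 0.05. The slope difference was fitted over all 12 libraries with 4 group means. Log2 changes understate those of genes at low levels. Replicate numbers come from the titles. Deviations from the group means of libraries with the same number correlated at 0.411, 0.549 and 0.357 in the knockdown table and 0.812, 0.859 and 0.536 in the overexpression table, all above 0.1, so the numbers were taken as pairs and blocked fits are given beside the others where they changed a call.

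The rule for named genes took Spi1, the 10 genes per direction with the largest smaller-of-both-tables change among graded genes at 5 FPKM or more, up to 6 per sign of the slope difference in genes called in knockdown, and up to 4 called members of each list with the smallest p. Evl, Mfge8, Csf2ra, Adora2b, Gm5483, Mmp13, the microRNA entries of the overexpression calls, and the genes at the limit of the grading, were named after their values were seen. The members and lists were chosen with earlier results of these data known. The fits were run on simulated data without differences between numbered pairs and with equal levels in both control groups. That run cannot show how the fits handle such differences in these libraries. Alternatives tried were the pseudocount, the filter on low values, the scaling, the block, the scale of the Spi1 step and leaving out libraries or pairs. A count model was planned for count tables and not run, as the unit is FPKM.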

Additional observations from a re-analysis of the deposited data

Results flagged for a closer look

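The slope difference of Uchl3 was 0.92, and a test of the difference between its response below and above the control level passed the threshold (limma over all 12 libraries with Benjamini-Hochberg adjustment, adjusted p = 0.0328). The slope was -0.88 from knockdown to scrambled control and 0.04 from empty control to overexpression. With the scaling by median ratios the adjusted p was 0.125, and over the fits that left out 1 library it ran from 0.0345 to 0.734. The scrambled controls were below the 9 other libraries in 3 of 3.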

How the results depend on the processing

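The replicate block moved the knockdown calls to 5079, and to 4409 and 1601 without knockdown pairs 1 and 2; leaving out 1 library without the block gave 1471 to 2218, lowest without knockdown 3. In overexpression the block gave 12 calls, with or without median-ratio scaling, 19 and 57 without pairs 2 and 3, and 0 without pair 1, while leaving out 1 library without the block gave 0 throughout. The slope difference had 439 calls with the block, 463 with block and median-ratio scaling, 450, 69 and 256 without knockdown pairs 1, 2 and 3, and 1, 0 and 1 without overexpression pairs 1, 2 and 3. Without the block it had 4 calls with no filter, 0 under median-ratio scaling, 87 with the Spi1 step in FPKM, 11 with each library's Spi1 level as covariate, and 0 to 1 without 1 library; block and FPKM step together gave 3053. Fewer libraries give fewer residual degrees of freedom; beyond that the cause was not tested.

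Graded genes numbered 93 at 5 FPKM or more, 37 without the 2 libraries farthest from the median Spi1 level, 214 by Pearson's r, 485 with each table centred on its controls, and 82 to 358 without 1 library, lowest without knockdown 1 and highest without overexpression 2. The median overexpression difference of genes that fell in knockdown was 0.074 for those that fell at least 1.5-fold and ran from -0.00243 to 0.0450 without 1 library; for genes that rose it was -0.0637 and -0.0816 to 0.0239. The pseudocount of 0.1 changed none of these results past its limit. The fits that combine or split the block, and the block, pseudocount and single-library values of the last 2 medians, were chosen after seeing the data. Libraries held 22.3 to 33.1 megareads, and how far depth or the number of libraries limits these calls was not tested.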

Other observations

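Nat6, an acetyltransferase gene, had the highest rank correlation with Spi1 over the 12 libraries, 0.93, and measured 7.72, 7.24 and 7.66 FPKM under knockdown and 9.86, 9.73 and 9.26 FPKM under overexpression, with 8.58 to 9.66 FPKM in the controls. Pygb, the brain form of glycogen phosphorylase, and Pex5, the peroxisomal import receptor, both had a correlation of -0.92, with slopes of -0.11 and -0.17 for Pygb and -0.16 and -0.20 for Pex5. Tap1, a subunit of the peptide transporter for antigen presentation, was graded against Spi1 at 86.9 to 87.7 FPKM under knockdown and 67.3 to 70.9 FPKM under overexpression, and its change of 0.16 in knockdown did not pass (adjusted p = 0.118, limma). These 4 genes were chosen after their values were seen.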
